A study of Danio rerio with 34 samples.

Results

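Messenger RNA of normal zebrafish embryos was followed across the onset of gastrulation, at 6 h.p.f. (hours post fertilization, the shield stage) against 4 h.p.f. (the sphere stage). The members were the 4 poly(A) RNA-seq libraries that the labels call control at these ages, 2 for 6 h.p.f. and 2 for 4 h.p.f., of 34 samples in the series. All came from whole embryos of the wild-type strain AB raised at 28.5°C, with a genotype given as normal. The labels do not say whether the control embryos received a control morpholino, how many embryos were pooled, or whether the replicates came from separate clutches, so the spread between replicates may be technical. The other samples were control libraries of 2 h.p.f., embryos injected with an antisense morpholino against elavl1a (Elavl1a morphants) at 6 and 4 h.p.f., and structure-probing (icSHAPE) and protein-binding libraries. Described here were the 9945 transcripts, of 13856 listed in any RNA-seq library, whose mean level reached 1 RPKM (reads per kilobase of transcript, scaled to the mapped reads of the library), and 9872 genes with 1 transcript each.

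The egg is stocked with RNAs made by the mother, and the embryo divides on this store before it transcribes its own genome. Genome activation in the blastula starts zygotic transcription, and maternal RNAs are then cleared by regulators that include the microRNA miR-430, codon content and deadenylation factors. At the sphere stage the embryo is a ball of blastomeres on the yolk, bounded by an outer epithelium, the enveloping layer, and by the yolk syncytial layer that faces the yolk. At the shield stage epiboly has covered part of the yolk, mesendoderm cells have begun to internalise at the margin, and the shield on the dorsal side is the organiser of the body axis.

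The libraries held 94241059 and 73534365 uniquely mapped reads at 6 h.p.f., against 75164072 and 65050992 at 4 h.p.f., and they listed 12423 transcripts each at 6 h.p.f. and 12481 to 12511 at 4 h.p.f. A ribosomal RNA transcript, zgc:158463, took 1.13% and 1.19% of unique reads at 6 h.p.f., against 4.50% and 4.76% at 4 h.p.f. Leaving it out of the totals gave 1369 transcripts higher and 4175 lower past 2-fold. Markers were read as a check of the tissue. All 7 markers of the enveloping layer were at 1 RPKM or more at either stage, as were all 4 of the yolk syncytial layer and all 3 of germ cells. Of 11 markers of later tissues such as muscle, blood and lens, 1 reached 1 RPKM at 6 h.p.f. and 2 did at 4 h.p.f., and none exceeded 1.74 RPKM. Markers of ovarian follicle cells stayed at or below 0.0744 RPKM at 6 h.p.f. and 0.457 RPKM at 4 h.p.f.

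Nearly every gene differed between the stages beyond the spread of its replicates. In edgeR's quasi-likelihood test with Benjamini-Hochberg adjustment, with library totals as the scaling, 2957 genes (30.0%) were higher at 6 h.p.f. and 6244 (63.2%) were lower at an adjusted p under 0.05, and 671 were not called. The replicates differed by little, with a common biological coefficient of variation of 0.0268, and the RPKM ranges of the stages did not overlap for 9529 genes (96.5%). A size threshold therefore separates the genes better than the p-value. Past 2-fold, 1405 genes (14.2%) were higher at 6 h.p.f. and 4038 (40.9%) were lower. Over the 9945 transcripts, 9261 (93.1%) were called, 1432 (14.4%) being higher and 4054 (40.8%) lower past 2-fold. Past 4-fold there were 717 higher and 1951 lower genes, and past 16-fold 263 higher and 151 lower.

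All these values are shares of a library, since the sources name no spike-in for the RNA-seq libraries, and the split between higher and lower genes moves with the scaling. The median log2 change of all genes was -0.65 by library totals, -0.07 by TMM (trimmed mean of M-values) and 0.09 by DESeq2 size factors. Past 2-fold, 2376 genes were higher and 2731 lower by TMM, and 2678 were higher and 2415 lower by size factors. All 1405 genes that were higher past 2-fold by library totals were so under all 3 scalings, and are called risen below. Of the 4038 that were lower past 2-fold, 2415 (24.5% of all genes) were so under all 3 scalings, and all 4038 kept a value below 0. TMM and size factors shift all genes upward by a nearly constant amount. The rises, and the values below 0, therefore had to hold and are not separate support. Falls under all 3 scalings are the falls by size factors. These 4038 are called fallen below, with the number that held past 2-fold under all 3 scalings given wherever more tested members of a list fell than rose. The background for each count of members is thus 14.2% risen, 40.9% fallen and 24.5% fallen under all 3 scalings. Levels are RPKM in each library, which the authors computed from uniquely and multiply mapped reads. Log2 changes come from uniquely mapped reads alone and are given with the standard error of the fit, from 2 libraries per stage. A log2 change can therefore differ from the ratio of the RPKM printed beside it, mostly where a level is low. For many of the largest rises it is the larger of both, among them otx2b, apoa1a, mespab, pla2g12b, cahz, foxc1a, her1, sox2 and cdx4. The fall of mlycd is likewise larger from unique reads than from RPKM. The standard errors do not cover this gap, so the size of such changes is uncertain. Genes were grouped by 52 functional lists, of which 39 had a median above that of all genes and 13 below it. Up to 3 rises and 3 falls per list were taken by the same kind of rule, 276 genes in all with adjusted p up to 0.00174 (edgeR, pold4 the highest), and other members are named for what they do, after their values were seen. Exact permutation of 2 against 2 libraries cannot reach a p of 0.05, so that every p given for single genes comes from an edgeR fit.

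**Figure D1:**
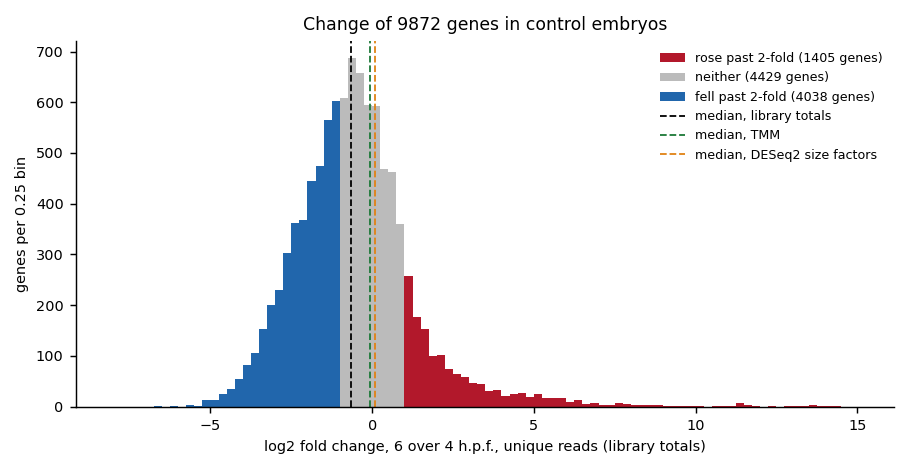
Histogram of the log2 fold change, 6 over 4 h.p.f., of 9872 genes (x axis, library totals; y axis, genes per 0.25 bin), with dashed lines at the median of all genes under each scaling. The bulk of genes lies below 0, with a median of -0.65, and the 1405 risen genes form a long tail to the right, with 263 past 16-fold.

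Risen and fallen genes differed in their level at 2 h.p.f., a stage whose libraries took no part in the contrast. Of the 1405 risen genes, 685 (48.8%) were under 1 RPKM at 2 h.p.f., 346 of them still under 1 RPKM at 4 h.p.f., while 720 (51.2%) were already above. Of the 4038 fallen genes, 3974 (98.4%) were at 1 RPKM or more at 2 h.p.f., and 64 were under it. The share at 1 RPKM or more was 95.3% of the genes in neither class and 90.3% of all genes. Because the level filter used the mean of all 10 libraries, a gene low at both earlier stages could pass it only through the 6 h.p.f. or the morphant libraries, and of the 357 genes under 1 RPKM at both 2 and 4 h.p.f. 346 were risen. This bears on every list below that holds such genes. Risen genes made up 30.7% of the summed RPKM in each library at 6 h.p.f., against 10.7% in each at 4 h.p.f., with 5.50% at the earlier 2 h.p.f. Fallen genes made up 8.18% and 8.25% at 6 h.p.f., against 31.7% and 31.8% at 4 h.p.f., with 39.9% at the earlier 2 h.p.f. They include the ribosomal RNA zgc:158463, with 5287 and 5543 RPKM at 6 h.p.f., against 20941 and 22066 RPKM at 4 h.p.f. All genes summed to 596979 and 596241 RPKM at 6 h.p.f., against 559803 and 560302 RPKM at 4 h.p.f. This RNA thus carried part of the fallen share, and more of it at 4 h.p.f. Transcript length did not set the classes apart, with medians of 1809 bases in risen genes, 1881.5 in fallen genes and 1867 in the others. In whole embryos, fewer cells of a type and less RNA per cell cannot be told apart, nor can less RNA and a shorter poly(A) tail after poly(A) selection.

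The largest rises included regulators of the body axis and lipid-handling genes. The genes shown here were taken by a rule, the 15 highest and the 15 lowest among called genes with at least 10 RPKM in the higher stage and no overlap between stages, and the highest adjusted p among these 30 was 4.97e-15. The posterior homeobox factor cdx4 had 229 and 224 RPKM at 6 h.p.f., against 0.926 and 0.892 RPKM at 4 h.p.f. (log2 change of 8.59 ± 0.09). The homeobox factor cdx1a had 14.3 and 14.8 RPKM at 6 h.p.f. and was not listed at 4 h.p.f., where the authors' tables leave out transcripts under 0.1 RPKM, so that it was at least 145-fold higher. In the same way the G protein subunit gna14, at 10.7 and 10.4 RPKM, was at least 106-fold higher at 6 h.p.f. Neither gene was seen at 4 h.p.f. in these tables.

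The retinoic acid synthesising enzyme aldh1a2 had 44.4 and 44.1 RPKM at 6 h.p.f., against 0.221 and 0.114 RPKM at 4 h.p.f. (log2 change of 8.60 ± 0.11), the paraxial mesoderm factor mespab had 57.7 and 59.3 RPKM at 6 h.p.f., against 0.2503 and 0.288 RPKM at 4 h.p.f. (log2 change of 8.56 ± 0.17), and the neural factor sox2 had 83.6 and 82.5 RPKM at 6 h.p.f., against 0.463 and 0.418 RPKM at 4 h.p.f. (log2 change of 8.28 ± 0.11). The anterior neural and organiser factor otx2b had 18.1 and 18.7 RPKM at 6 h.p.f., against 0.150 and 0.180 RPKM at 4 h.p.f. (log2 change of 8.46 ± 0.23 from unique reads, while the RPKM give a smaller rise). The transcriptional repressor prdm1a had 15.95 and 15.4 RPKM at 6 h.p.f., against 0.113 RPKM in 1 library at 4 h.p.f. and none listed in the other. These 5 genes were at 0.187 RPKM or less on average at 2 h.p.f. Among lipid genes, apolipoprotein apoa1a had 115 and 118 RPKM at 6 h.p.f., against 0.477 and 0.439 RPKM at 4 h.p.f. (log2 change of 8.98 ± 0.13), and the secreted phospholipase family member pla2g12b, which acts in lipoprotein secretion in mice and zebrafish, had 69.3 and 71.7 RPKM at 6 h.p.f., against 0.270 and 0.207 RPKM at 4 h.p.f. (log2 change of 9.06 ± 0.12). The fatty acid binding protein fabp1b.1 had 34.4 and 36.6 RPKM at 6 h.p.f., against 0.222 and 0.128 RPKM at 4 h.p.f. from reads that mapped more than once. The carbonic anhydrase cahz had 48.5 and 46.6 RPKM at 6 h.p.f., against 0.186 and 0.194 RPKM at 4 h.p.f. (log2 change of 8.84 ± 0.14), and the heparin-binding growth factor mdkb had 28.8 and 27.7 RPKM at 6 h.p.f., against 0.155 RPKM in 1 library at 4 h.p.f. and none listed in the other. The remaining members of the 15 highest were tm6sf2a and rltgr, at 30.7 and 102 RPKM on average at 6 h.p.f. and at 0.390 RPKM or less in each library at 4 h.p.f.

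The largest falls differed in their level at 2 h.p.f. Of the 15 lowest genes, 10 had 17.0 RPKM or more at 2 h.p.f. and less at 4 h.p.f. Malonyl-CoA decarboxylase mlycd had 0.363 and 0.442 RPKM at 6 h.p.f., against 13.2 and 13.2 RPKM at 4 h.p.f. (log2 change of -5.53 ± 0.12) and 23.7 RPKM at 2 h.p.f., and protein kinase C delta prkcda had 1.56 and 1.56 RPKM at 6 h.p.f., against 40.8 and 40.9 RPKM at 4 h.p.f. (log2 change of -5.02 ± 0.04) and 101 RPKM at 2 h.p.f. The glycogen-targeting phosphatase subunit ppp1r3da had 0.671 and 0.672 RPKM at 6 h.p.f., against 20.1 and 19.1 RPKM at 4 h.p.f. (log2 change of -5.30 ± 0.11), with 66.6 RPKM at 2 h.p.f., and tissue factor f3b had 0.940 and 0.890 RPKM at 6 h.p.f., against 24.0 and 23.1 RPKM at 4 h.p.f. (log2 change of -4.86 ± 0.09), with 78.5 RPKM. The other 5 were at 8.78 RPKM or less at 2 h.p.f. and were highest at 4 h.p.f. among the 3 stages. The homeobox gene mxtx2, an inducer of the yolk syncytial layer, had 2.26 and 2.32 RPKM at 6 h.p.f., against 125 and 127 RPKM at 4 h.p.f. (log2 change of -6.19 ± 0.09), and was at 0.0948 RPKM at 2 h.p.f. The uncharacterised genes si:dkey-11o15.10 and si:rp71-45k5.2 had 2.59 and 2.55 RPKM at 6 h.p.f., against 140.1 and 137 RPKM at 4 h.p.f. (log2 change of -6.04 ± 0.06), and 1.30 and 1.32 RPKM at 6 h.p.f., against 98.3 and 101 RPKM at 4 h.p.f. (log2 change of -6.70 ± 0.08). In each of the 15 both libraries at 6 h.p.f. lay below both at 4 h.p.f., and all 15 fell past 2-fold under all 3 scalings.

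**Figure D2:**
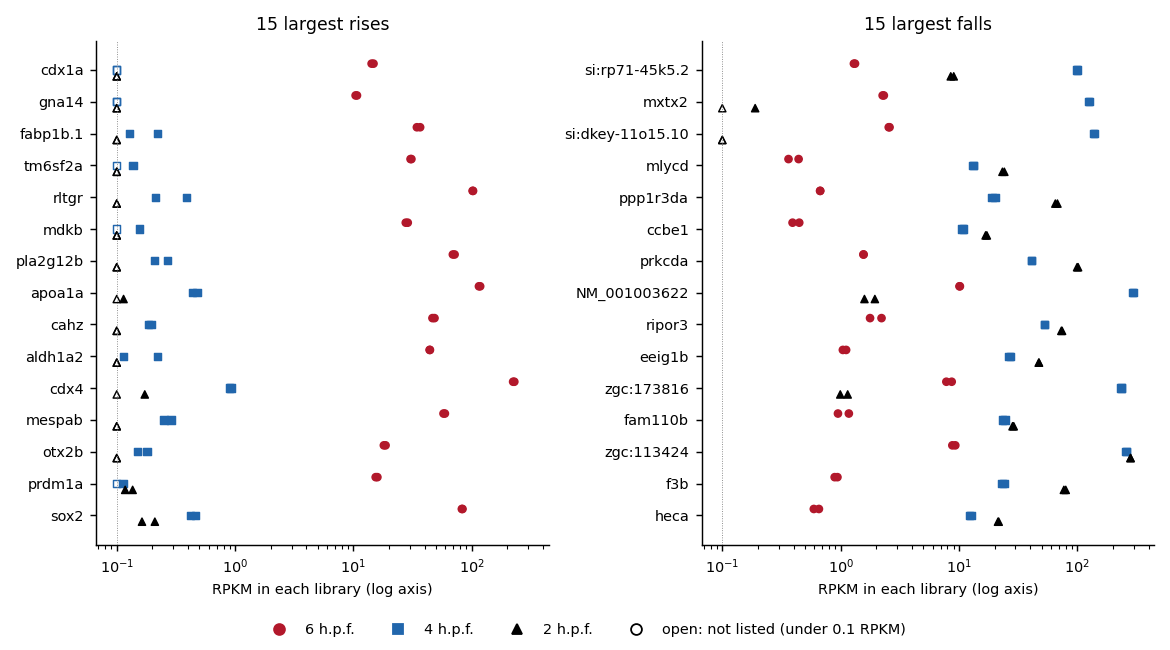
RPKM on a log axis in each library for the 15 largest rises (left) and the 15 largest falls (right), with circles for 6 h.p.f., squares for 4 h.p.f. and triangles for 2 h.p.f.; open symbols mark libraries in which the transcript was not listed and are drawn at 0.1 RPKM. Replicates of a stage lie close together beside the distance between stages, and mxtx2 is near the limit at 2 h.p.f., at 126 RPKM at 4 h.p.f. and at 2.29 RPKM at 6 h.p.f.

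Nodal ligands of the TGF-beta family induce mesendoderm at the margin, with Smad proteins as transducers and Lefty proteins as inhibitors. The pathway itself had no risen member among 15 tested genes, while 6 fell, 4 under all 3 scalings (median log2 change of -0.81, against -0.65 over all genes), shares of fallen members close to the background. The ligand ndr1 (squint) had 2.81 and 3.41 RPKM at 6 h.p.f., against 29.1 and 28.1 RPKM at 4 h.p.f. (log2 change of -3.43 ± 0.10), with 2.08 RPKM at 2 h.p.f. Its maternal partner ligand gdf3 (Vg1) had 107 and 105 RPKM at 6 h.p.f., against 531 and 528 RPKM at 4 h.p.f. (log2 change of -2.35 ± 0.02), and the transducer smad3b had 0.592 and 0.493 RPKM at 6 h.p.f., against 2.37 and 2.62 RPKM at 4 h.p.f. (log2 change of -2.30 ± 0.21). The ligand ndr2 (cyclops) had 14.7 RPKM at 6 h.p.f. and 19.1 RPKM at 4 h.p.f., a smaller change (log2 change of -0.38 ± 0.08), and the inhibitor lft1 had 31.5 and 23.6 RPKM (log2 change of 0.45 ± 0.07). Summed over the list, levels were 342 and 347 RPKM at 6 h.p.f., against 850.2 and 850.1 at 4 h.p.f.

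Of 29 tested genes in the list of mesendoderm and mesoderm factors, 20 rose and 1 fell, with a median log2 change of 3.94. Whether Nodal signals switch them on was not tested. Of the 29, 21 were under 1 RPKM at 2 h.p.f., and for those also low at 4 h.p.f. the level filter favoured a rise. The T-box factor tbxta (no tail) had 311 RPKM at 6 h.p.f. and 29.1 RPKM at 4 h.p.f. (log2 change of 3.48 ± 0.02), and the presomitic mesoderm factor msgn1 had 171 and 2.52 RPKM (log2 change of 6.40 ± 0.04). The even-skipped factor eve1 had 104 and 105 RPKM at 6 h.p.f., against 0.824 and 0.693 RPKM at 4 h.p.f. (log2 change of 7.67 ± 0.10). Factors of later mesoderm were not listed at 4 h.p.f.: twist2 had 5.15 and 5.30 RPKM at 6 h.p.f., at least 52.2-fold higher, and the myogenic factor myf5 had 2.94 and 2.84 RPKM, at least 28.9-fold higher. Members already strong at 4 h.p.f. did not rise past 2-fold: tbx16 had 155 RPKM at 6 h.p.f. and 119 RPKM at 4 h.p.f., gsc had 53.2 and 63.9 RPKM, and noto had 80.7 and 142 RPKM. The fallen member was tbx20, with 0.204 and 0.165 RPKM at 6 h.p.f., against 2.36 and 2.31 RPKM at 4 h.p.f. (log2 change of -4.11 ± 0.31).

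Endoderm factors rose in 8 of 11 tested members. The endoderm determinant sox32 (casanova) had 155 and 149.8 RPKM at 6 h.p.f., against 15.02 and 14.7 RPKM at 4 h.p.f. (log2 change of 3.49 ± 0.05), and its target sox17 had 4.20 and 3.90 RPKM at 6 h.p.f., against 0.329 and 0.469 RPKM at 4 h.p.f. (log2 change of 3.599 ± 0.23). The GATA factor gata6 had 7.45 and 8.19 RPKM at 6 h.p.f., against 0.835 and 0.805 RPKM at 4 h.p.f. (log2 change of 3.50 ± 0.15) and the forkhead factor foxa2 had 19.4 and 18.8 RPKM at 6 h.p.f., against 1.64 and 1.72 RPKM at 4 h.p.f. (log2 change of 3.94 ± 0.14). The T-box factor eomesa, a maternal cofactor of Nodal, fell instead, with 9.48 and 10.04 RPKM at 6 h.p.f., against 57.9 and 60.1 RPKM at 4 h.p.f. (log2 change of -2.72 ± 0.04). Among organiser genes, 10 of 17 rose and 2 fell. The Wnt antagonist frzb had 15.5 and 15.2 RPKM at 6 h.p.f., against 0.270 and 0.483 RPKM at 4 h.p.f. (log2 change of 5.91 ± 0.14), and the homeobox repressor hhex had 42.2 and 39.8 RPKM at 6 h.p.f., against 1.36 and 2.13 RPKM at 4 h.p.f. (log2 change of 5.04 ± 0.20). The fallen members were ndr1 and the early dorsal homeobox gene dharma, with 3.20 and 3.12 RPKM at 6 h.p.f., against 17.7 and 17.2 RPKM at 4 h.p.f. (log2 change of -2.69 ± 0.16). The Bmp antagonist chrd had 131 RPKM at 6 h.p.f. and 79.7 RPKM at 4 h.p.f. (log2 change of 0.72 ± 0.03), a change under 2-fold.

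Bone morphogenetic proteins (Bmp) pattern the ventral side, and secreted antagonists bind them dorsally. Of 32 tested members 14 rose and 5 fell (median log2 change of 0.77). The ligand bmp4 had 15.08 and 15.2 RPKM at 6 h.p.f., against 0.325 and 0.374 RPKM at 4 h.p.f. (log2 change of 5.92 ± 0.16), while bmp2b had 65.9 RPKM at 6 h.p.f. and 67.7 RPKM at 4 h.p.f. and was not called. The inhibitor of DNA binding gene id4, a target of Bmp, had 16.03 and 15.3 RPKM at 6 h.p.f., against 0.203 and 0.390 RPKM at 4 h.p.f. (log2 change of 6.20 ± 0.29), and the ventral repressor ved had 733 RPKM at 6 h.p.f. and 169 RPKM at 4 h.p.f. (log2 change of 2.12 ± 0.02). The transducer smad1, with 2.49 and 2.695 RPKM at 6 h.p.f., was not listed at 4 h.p.f. and was at least 25.9-fold higher. Fallen members held more RNA at 2 h.p.f.: the receptor bmpr1ba had 2.69 and 3.01 RPKM at 6 h.p.f., against 39.4 and 40.3 RPKM at 4 h.p.f. (log2 change of -4.03 ± 0.05), with 66.8 RPKM at 2 h.p.f., and the ligand gdf6a had 0.4998 and 0.598 RPKM at 6 h.p.f., against 3.93 and 4.69 RPKM at 4 h.p.f. (log2 change of -3.09 ± 0.14), with 12.2 RPKM. The antagonist cofactor twsg1a had 1.41 and 1.14 RPKM at 6 h.p.f., against 4.15 and 4.07 RPKM at 4 h.p.f. (log2 change of -1.78 ± 0.11).

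The listed Wnt signalling genes rose in 19 of 37 members and fell in 2, neither of which held under all 3 scalings. The Sp-family factor sp5l, a direct Wnt target, had 286 and 283 RPKM at 6 h.p.f., against 2.81 and 3.08 RPKM at 4 h.p.f. (log2 change of 6.96 ± 0.04). The Frizzled receptor gene fzd10 had 12.5 and 12.4 RPKM at 6 h.p.f., against 0.375 and 0.431 RPKM at 4 h.p.f. (log2 change of 5.52 ± 0.12). Of 12 tested Frizzled genes, in the list or not, 7 rose and 2 fell, both under all 3 scalings, and fzd3b, outside the list, was at 1.88 and 1.70 RPKM at 6 h.p.f., against 8.22 and 8.09 RPKM at 4 h.p.f. (log2 change of -2.24 ± 0.12). The transducer ctnnb1 (beta-catenin) had 507 RPKM at 6 h.p.f. and 231 RPKM at 4 h.p.f. (log2 change of 1.13 ± 0.01). The ligand wnt5b had 13.2 and 0.499 RPKM (log2 change of 5.31 ± 0.14). The ligand wnt11f2, known for convergence and extension movements, had 107 and 89.5 RPKM (log2 change of 0.25 ± 0.03). The fallen members were the coreceptor lrp5, with 2.37 and 2.39 RPKM at 6 h.p.f., against 5.40 and 5.28 RPKM at 4 h.p.f. (log2 change of -1.21 ± 0.07), and the cytoplasmic transducer dvl3a, with 52.0 and 51.1 RPKM at 6 h.p.f., against 104 and 105 RPKM at 4 h.p.f. (log2 change of -1.05 ± 0.02).

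In the list of fibroblast growth factor (Fgf) ligands, which also holds receptors and feedback genes, 9 of 15 members rose and 1 fell. Of the 8 tested genes with an fgf symbol, in the list or not, 3 rose and 4 fell, 2 of them under all 3 scalings. The ligand fgf24 had 9.37 and 9.67 RPKM at 6 h.p.f., against 0.648 and 0.405 RPKM at 4 h.p.f. (log2 change of 4.51 ± 0.21), and fgf8a had 43.6 RPKM at 6 h.p.f. and 18.03 RPKM at 4 h.p.f. (log2 change of 1.33 ± 0.05). The feedback genes spry1 and spred1 had 13.7 and 12.7 RPKM at 6 h.p.f., against 2.72 and 2.90 RPKM at 4 h.p.f. (log2 change of 2.37 ± 0.12), and 10.34 and 10.8 RPKM at 6 h.p.f., against 2.42 and 2.16 RPKM at 4 h.p.f. (log2 change of 2.43 ± 0.09). The ligand fgf17 fell, with 18.5 and 19.6 RPKM at 6 h.p.f., against 60.1 and 59.5 RPKM at 4 h.p.f. (log2 change of -1.72 ± 0.04), a fall that stayed below 0 but under 2-fold by DESeq2 size factors. In the retinoic acid pathway 5 of 10 members rose. Beside aldh1a2, the retinaldehyde reductase dhrs3b had 43.1 and 43.0 RPKM at 6 h.p.f., against 1.156 and 1.04 RPKM at 4 h.p.f. (log2 change of 5.57 ± 0.10) and the binding protein crabp2b had 14.6 and 14.8 RPKM at 6 h.p.f., against 1.72 and 1.87 RPKM at 4 h.p.f. (log2 change of 3.30 ± 0.21), while the receptor rarga fell, with 3.51 and 3.75 RPKM at 6 h.p.f., against 9.76 and 10.9 RPKM at 4 h.p.f. (log2 change of -1.59 ± 0.09).

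Notch pathway genes and the Her repressors were split, 11 of 26 rising and 7 falling, and their median of 0.17 lay above that of all genes. Segmentation and neurogenic genes were among the risen. The ligand dlc had 42.6 and 43.0 RPKM at 6 h.p.f., against 0.273 and 0.243 RPKM at 4 h.p.f. (log2 change of 8.14 ± 0.09), the ligand dla had 8.60 and 8.96 RPKM at 6 h.p.f., against 0.163 and 0.150 RPKM at 4 h.p.f. (log2 change of 6.38 ± 0.15), and the oscillator gene her1 had 50.3 and 47.1 RPKM at 6 h.p.f., against 0.324 and 0.423 RPKM at 4 h.p.f. (log2 change of 7.90 ± 0.13), all at 0.347 RPKM or less on average at 2 h.p.f. The repressor her5 fell, with 5.06 and 4.39 RPKM at 6 h.p.f., against 96.8 and 94.1 RPKM at 4 h.p.f. (log2 change of -4.54 ± 0.07), after 0.191 RPKM at 2 h.p.f. The fallen members hey2 and rbpjb were present at 2 h.p.f., and rbpjb, a DNA-binding partner of Notch, had 2.02 and 1.82 RPKM at 6 h.p.f., against 10.8 and 10.1 RPKM at 4 h.p.f. (log2 change of -2.67 ± 0.08). In the Hedgehog pathway 6 of 12 members rose and 3 fell. The ligand shha had 6.42 and 6.58 RPKM at 6 h.p.f. and was not listed at 4 h.p.f., at least 65.0-fold higher. Its signal transducer smo had 41.9 and 40.7 RPKM at 6 h.p.f., against 6.10 and 6.11 RPKM at 4 h.p.f. (log2 change of 2.94 ± 0.06), and the inhibitor sufu had 21.6 and 21.9 RPKM at 6 h.p.f., against 75.9 and 76.2 RPKM at 4 h.p.f. (log2 change of -1.87 ± 0.03). The ephrin ligands efnb2a and efnb2b, which act in boundary formation, had 6.14 and 7.34 RPKM at 6 h.p.f., against 0.169 and 0.209 RPKM at 4 h.p.f. (log2 change of 5.04 ± 0.24), and 28.4 and 29.9 RPKM at 6 h.p.f., against 2.12 and 1.77 RPKM at 4 h.p.f. (log2 change of 4.20 ± 0.10), and the receptor ephb2b fell, with 1.13 and 1.24 RPKM at 6 h.p.f., against 15.5 and 15.7 RPKM at 4 h.p.f. (log2 change of -3.95 ± 0.05). Of 14 ephrin and Eph genes, 8 rose and 3 fell. Of chemokine and apelin genes, 1 of 10 rose, the Apelin receptor ligand apela (toddler), at 207 and 208 RPKM at 6 h.p.f., against 48.5 and 46.3 RPKM at 4 h.p.f. (log2 change of 2.17 ± 0.05).

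Neural plate factors rose in 17 of 31 members and fell in 4 (median of 1.22). The SoxB1 genes, which share a role in neural and pluripotent cells, did not move as a block. Beside sox2, sox3 had 196 RPKM at 6 h.p.f. and 91.1 RPKM at 4 h.p.f. (log2 change of 1.11 ± 0.03) and sox19a had 318 and 137 RPKM (log2 change of 1.22 ± 0.03), whereas the maternal member sox19b had 29.6 and 28.6 RPKM at 6 h.p.f., against 103 and 103 RPKM at 4 h.p.f. (log2 change of -1.88 ± 0.02) and 381 RPKM at 2 h.p.f. The largest fall was that of sox21a, with 0.312 and 0.299 RPKM at 6 h.p.f., against 7.39 and 7.75 RPKM at 4 h.p.f. (log2 change of -5.02 ± 0.20). Over all Sox genes 5 of 12 rose and 4 fell, all 4 under all 3 scalings. Surface ectoderm factors rose in 16 of 29 members. The epidermal factors tfap2c and gata2a had 37.2 and 81.5 RPKM at 6 h.p.f., against 4.44 and 39.3 RPKM at 4 h.p.f. The border factors dlx3b and msx1a had 10.1 and 9.03 RPKM at 6 h.p.f., against 0.414 and 0.267 RPKM at 4 h.p.f. (log2 change of 5.23 ± 0.22), and 8.36 and 8.28 RPKM at 6 h.p.f., against 0.192 and 0.468 RPKM at 4 h.p.f. (log2 change of 5.46 ± 0.34), and the Krüppel-like factor klf2a fell, at 5.79 RPKM on average at 6 h.p.f., against 80.2 RPKM at 4 h.p.f.

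Of 70 posterior and Hox genes in the annotation, only 12 passed the filter on level, and those that passed through 6 h.p.f. alone had to be higher there. Of the 12, 7 rose and 3 fell. The Hox gene hoxb1b had 5.23 RPKM at 6 h.p.f. and 0.0931 RPKM at 4 h.p.f. (log2 change of 6.38 ± 0.42). A mean under 0.1 RPKM shows that not every library at 4 h.p.f. listed it, so this fold depends on an unlisted value set to 0. The homeobox gene evx1 fell, with 0.421 and 0.433 RPKM at 6 h.p.f., against 5.24 and 4.69 RPKM at 4 h.p.f. (log2 change of -4.02 ± 0.15). Forkhead genes divided evenly by library totals alone, 8 of 24 rising and 8 falling, 4 under all 3 scalings. By TMM 9 rose and 5 fell past 2-fold. The mesoderm factor foxc1a had 27.3 and 28.1 RPKM at 6 h.p.f., against 0.2505 and 0.261 RPKM at 4 h.p.f. (log2 change of 7.68 ± 0.11), and the metabolic regulator foxo1b had 0.287 and 0.331 RPKM at 6 h.p.f., against 5.14 and 4.63 RPKM at 4 h.p.f. (log2 change of -4.71 ± 0.19).

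The lists of the enveloping layer and of the yolk syncytial layer had the largest shares of risen members among the 52. All 13 tested keratins rose, out of 26 in the annotation, with a median log2 change of 3.82, and 12 of them were under 1 RPKM at 2 h.p.f., so that the filter bears on this count. Summed over the list, levels were 9712 and 9733 RPKM at 6 h.p.f., against 1245 and 1239.7 at 4 h.p.f., with 4.53 and 4.78 at the earlier 2 h.p.f. The largest members were krt4, at 2723 RPKM at 6 h.p.f. and 326 RPKM at 4 h.p.f. (log2 change of 3.06 ± 0.01), and krt8, at 2128 and 316 RPKM (log2 change of 2.75 ± 0.01). The largest fold belonged to krt17, with 233.9 and 231 RPKM at 6 h.p.f., against 2.99 and 3.20 RPKM at 4 h.p.f. (log2 change of 6.59 ± 0.05), and the type I keratin cyt1 had 127 and 125 RPKM at 6 h.p.f., against 3.22 and 3.10 RPKM at 4 h.p.f. (log2 change of 5.63 ± 0.06). Keratin paralogues are alike in sequence, so reads shared among them may have been split in the counting.

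Claudins, the strand proteins of tight junctions, moved both ways. Of 26 tested junction genes 8 rose and 6 fell. The maternal claudins cldnd and cldng had 42.1 and 45.2 RPKM at 6 h.p.f., against 963 and 994 RPKM at 4 h.p.f. (log2 change of -4.55 ± 0.03), and 20.4 and 23.6 RPKM at 6 h.p.f., against 521 and 536 RPKM at 4 h.p.f. (log2 change of -4.72 ± 0.04), from 2318 and 2027 RPKM on average at 2 h.p.f. Other claudins, near 0 at 2 h.p.f., were higher at 6 h.p.f.: cldne had 631 RPKM at 6 h.p.f. and 163 RPKM at 4 h.p.f. (log2 change of 1.95 ± 0.03), and cldnf had 46.1 and 45.9 RPKM at 6 h.p.f., against 6.03 and 5.78 RPKM at 4 h.p.f. (log2 change of 3.11 ± 0.06).

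Genes of the yolk syncytial layer and of lipoproteins rose in 19 of 22 members, with a median of 3.52, and 20 of them were under 1 RPKM at 2 h.p.f. Apolipoprotein apoeb had 3035 RPKM at 6 h.p.f. and 508 RPKM at 4 h.p.f. (log2 change of 2.57 ± 0.01), and apoa1b had 226 and 1.24 RPKM (log2 change of 7.96 ± 0.07). Apolipoprotein B apobb.1 had 3.43 and 3.29 RPKM at 6 h.p.f. and was not listed at 4 h.p.f., at least 33.6-fold higher. The transfer protein mttp, which loads lipid onto apolipoprotein B, had 36.3 and 5.07 RPKM (log2 change of 3.05 ± 0.06). Only mxtx2 fell, and its paralogue mxtx1 had 37.4 and 29.3 RPKM (log2 change of 0.36 ± 0.04). Among cadherins, catenins and matrix genes 15 of 33 rose. N-cadherin cdh2 had 90.8 and 8.503 RPKM (log2 change of 3.58 ± 0.03), while E-cadherin cdh1 had 175 RPKM at 6 h.p.f. and 181 RPKM at 4 h.p.f. (log2 change of -0.05 ± 0.02). The cadherin cdh6 had 66.1 and 64.3 RPKM at 6 h.p.f., against 0.611 and 0.621 RPKM at 4 h.p.f. (log2 change of 7.21 ± 0.06), and the laminin chain lama1 had 45.3 and 1.72 RPKM (log2 change of 5.02 ± 0.04). The hyaluronan link protein hapln4 fell, with 20.6 and 19.7 RPKM at 6 h.p.f., against 107 and 99.7 RPKM at 4 h.p.f. (log2 change of -2.45 ± 0.04).

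Germ plasm genes gave the lowest median of any list, -2.27, with no risen member among 19 and 13 fallen, 11 under all 3 scalings. The germ plasm organiser buc (bucky ball) had 6.53 and 7.34 RPKM at 6 h.p.f., against 161 and 165 RPKM at 4 h.p.f. (log2 change of -4.74 ± 0.03), after 560.3 RPKM at 2 h.p.f. The piRNA pathway gene asz1 had 2.34 and 2.38 RPKM at 6 h.p.f., against 39.3 and 37.8 RPKM at 4 h.p.f. (log2 change of -4.30 ± 0.06). The germ cell helicase ddx4 (vasa), which primordial germ cells go on expressing, had 109 RPKM at 6 h.p.f. and 158 RPKM at 4 h.p.f. (log2 change of -0.56 ± 0.02), and dazl had 6.33 and 28.3 RPKM (log2 change of -2.27 ± 0.04). Summed levels were 514 and 511 RPKM at 6 h.p.f., against 2838 and 2829 at 4 h.p.f.

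Maternal oocyte proteins fell in 31 of 47 members, 24 under all 3 scalings, and rose in 1. The cyclin ccna1 had 65.2 RPKM on average at 6 h.p.f., against 1015 RPKM at 4 h.p.f. The oocyte elongin eloal had 5.96 and 5.84 RPKM at 6 h.p.f., against 124 and 127 RPKM at 4 h.p.f. (log2 change of -4.65 ± 0.03). Cyclins ccnb1 and ccnb2 had 248 and 119 RPKM at 6 h.p.f., against 702 and 715 RPKM at 4 h.p.f. The egg coat gene zp2.1 had 13.9 RPKM at 6 h.p.f. and 19.0 RPKM at 4 h.p.f. (log2 change of -0.46 ± 0.08), while 11 of 18 tested genes with a zp symbol, in the list or not, fell, 6 under all 3 scalings. The risen member was the translational regulator ybx1, with 89.2 and 84.8 RPKM at 6 h.p.f., against 39.6 and 42.2 RPKM at 4 h.p.f. (log2 change of 1.09 ± 0.04). The genome activation factors parted: nanog had 52.3 and 51.9 RPKM at 6 h.p.f., against 884 and 877 RPKM at 4 h.p.f. (log2 change of -4.13 ± 0.02), pou5f3 had 594 RPKM at 6 h.p.f. and 413 RPKM at 4 h.p.f. (log2 change of 0.52 ± 0.01), and sox19b fell as given above. Their list of 26 had 6 risen and 9 fallen members, 6 under all 3 scalings, and its median turned from -0.08 by library totals to 0.50 by TMM.

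**Figure D3:**
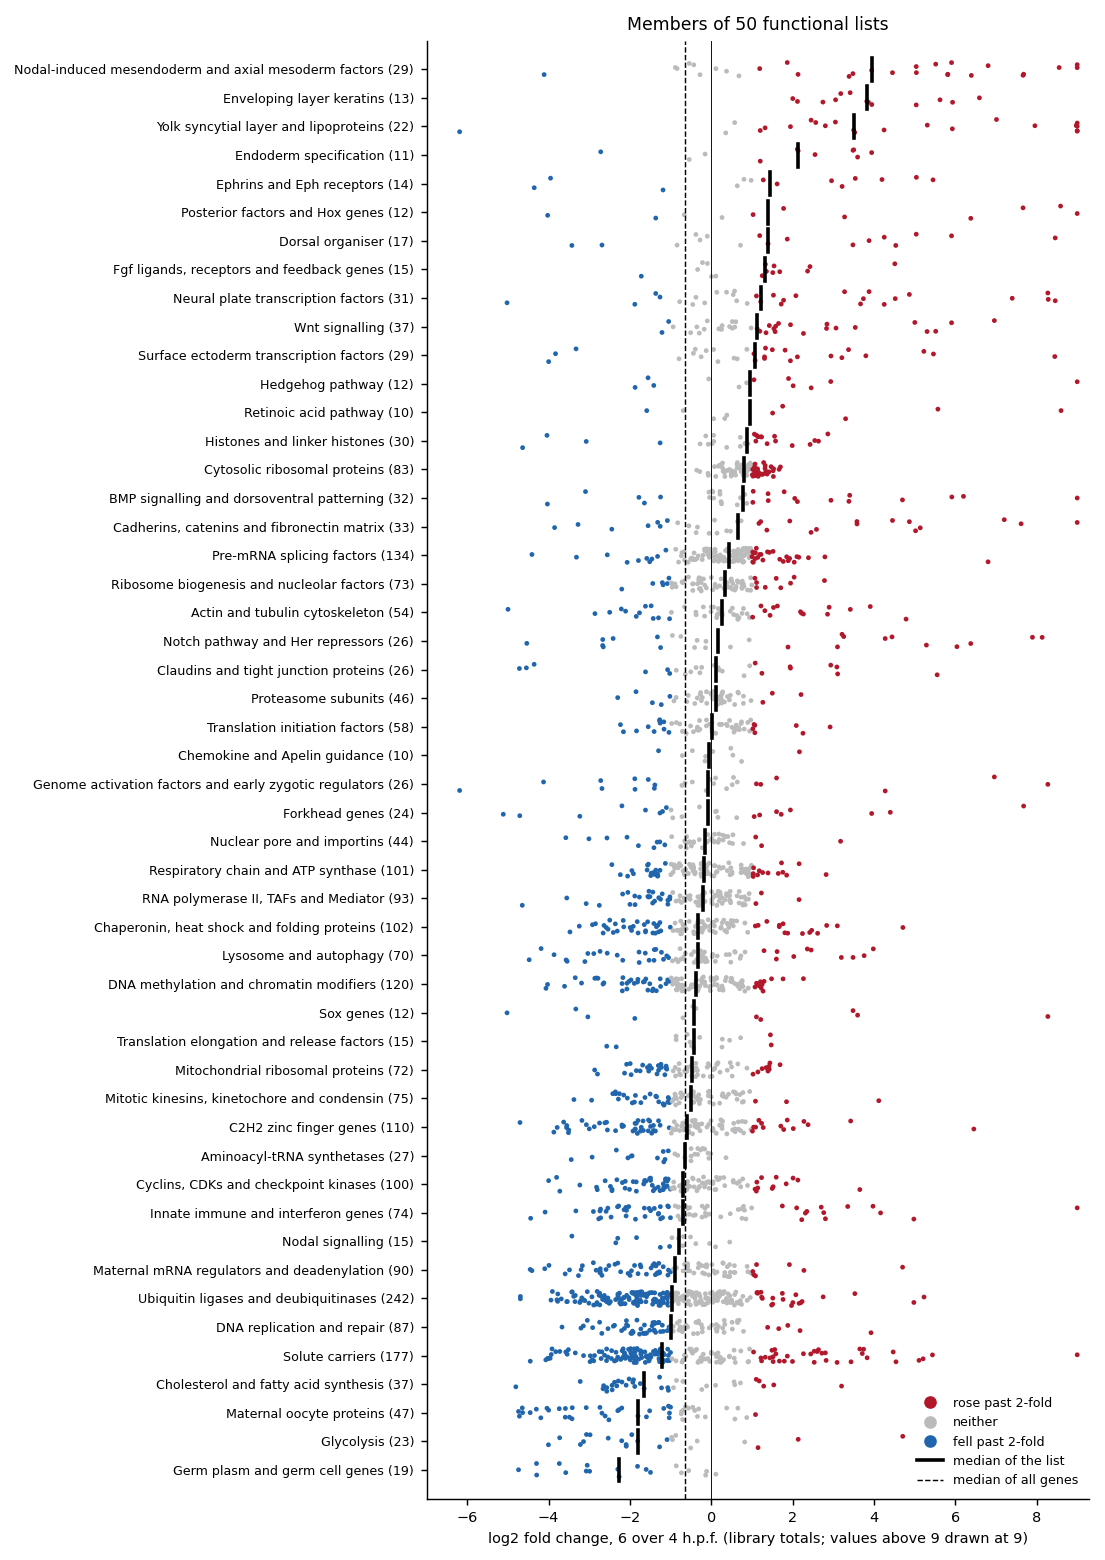
Log2 fold change, 6 over 4 h.p.f., of every tested member of 50 of the functional lists (x axis, library totals, values above 9 drawn at 9; number of members in brackets), with a black bar at the median of each list and a dashed line at the median of all genes, -0.65. Mesendoderm, keratin and yolk syncytial layer genes lie to the right, germ plasm, glycolysis and maternal oocyte genes to the left.

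The translation machinery was not uniform. Cytosolic ribosomal proteins, the largest share of the library among the lists, rose in 28 of 83 members, fell past 2-fold in none, and were higher at an adjusted p under 0.05 in 78, with a median of 0.80. Their summed levels were 96445 and 96735 RPKM at 6 h.p.f., against 55932 and 56622 at 4 h.p.f., with 29359.9 and 29695 at the earlier 2 h.p.f. The largest rises among them were under 4-fold: rps15a had 1772 and 1726 RPKM at 6 h.p.f., against 605 and 596 RPKM at 4 h.p.f. (log2 change of 1.53 ± 0.02), and rpl35a had 1165 and 1169.6 RPKM at 6 h.p.f., against 357 and 358 RPKM at 4 h.p.f. (log2 change of 1.70 ± 0.02). Members with near-identical copies elsewhere in the genome may have lost reads in the counting. Elongation factor eef1a1l1 was the most abundant transcript of all at 6 h.p.f., with 13386 and 13464 RPKM at 6 h.p.f., against 4777 and 4818 RPKM at 4 h.p.f. (log2 change of 1.47 ± 0.01). Its paralogue eef1a1l2 fell, with 7.07 and 6.93 RPKM at 6 h.p.f., against 38.3 and 39.5 RPKM at 4 h.p.f. (log2 change of -2.57 ± 0.07).

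Mitochondrial ribosomal proteins rose in 9 of 72 members and fell in 22, 8 under all 3 scalings, and their median turned from -0.47 by library totals to 0.11 by TMM. Within the same ribosome mrpl42 had 32.1 and 31.9 RPKM at 6 h.p.f., against 10.01 and 11.3 RPKM at 4 h.p.f. (log2 change of 1.69 ± 0.10) and mrpl3 had 15.2 and 15.7 RPKM at 6 h.p.f., against 98.9 and 98.2 RPKM at 4 h.p.f. (log2 change of -2.80 ± 0.04). Aminoacyl-tRNA synthetases had no risen member among 27 and 11 fallen, and the 6 that fell under all 3 scalings were all mitochondrial enzymes, among them rars2 with 1.29 and 1.23 RPKM at 6 h.p.f., against 12.6 and 12.1 RPKM at 4 h.p.f. (log2 change of -3.45 ± 0.10), and nars2 with 0.971 and 0.793 RPKM at 6 h.p.f., against 5.78 and 5.93 RPKM at 4 h.p.f. (log2 change of -2.93 ± 0.15). Initiation factors rose in 7 of 58 and fell in 11, 3 under all 3 scalings. The cap-binding protein eif4ea had 67.0 and 66.6 RPKM at 6 h.p.f., against 9.58 and 9.78 RPKM at 4 h.p.f. (log2 change of 2.92 ± 0.06), and eif2b3, a subunit of the exchange factor of eIF2, had 3.42 and 3.15 RPKM at 6 h.p.f., against 13.9 and 13.3 RPKM at 4 h.p.f. (log2 change of -2.16 ± 0.09). Ribosome biogenesis factors rose in 9 of 73 and fell in 6, with a median of 0.34. Their risen share of 12.3% was close to the 14.2% of all genes. Risen members included the rRNA methyltransferase nop2 with 181 and 181 RPKM at 6 h.p.f., against 28.0 and 27.1 RPKM at 4 h.p.f. (log2 change of 2.78 ± 0.03), and the nucleolar GTPase gnl3 with 178 and 169.7 RPKM at 6 h.p.f., against 43.1 and 44.6 RPKM at 4 h.p.f. (log2 change of 2.04 ± 0.03). The oocyte nucleoplasmin npm2a fell, with 6.71 and 6.67 RPKM at 6 h.p.f., against 28.2 and 29.2 RPKM at 4 h.p.f. (log2 change of -2.20 ± 0.07).

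Glycolysis genes fell in 14 of 23 members, 12 under all 3 scalings, with a median of -1.81, though paralogues of a step went apart. Hexokinase hk2 had 3.88 and 3.35 RPKM at 6 h.p.f., against 30.3 and 29.2 RPKM at 4 h.p.f. (log2 change of -3.22 ± 0.06), while hk1 had 13.8 and 13.9 RPKM at 6 h.p.f., against 0.746 and 0.715 RPKM at 4 h.p.f. (log2 change of 4.71 ± 0.10). The aldolase gene aldocb had 2.05 RPKM at 6 h.p.f. and 15.8 RPKM at 4 h.p.f. (log2 change of -3.07 ± 0.07). Phosphoglycerate kinase pgk1 had 6.49 and 6.92 RPKM at 6 h.p.f., against 95.8 and 94.3 RPKM at 4 h.p.f. (log2 change of -4.01 ± 0.04), and gapdh, often used as a reference transcript, had 148 RPKM at 6 h.p.f. and 621 RPKM at 4 h.p.f. (log2 change of -2.09 ± 0.02). Respiratory chain and ATP synthase genes moved less, 13 of 101 rising and 18 falling, 5 under all 3 scalings, with a median that turned from -0.17 by library totals to 0.40 by TMM. The subunit gene ndufa3 rose, with 24.3 and 24.8 RPKM at 6 h.p.f., against 6.40 and 5.80 RPKM at 4 h.p.f. (log2 change of 2.16 ± 0.11), and the copper chaperone cox17 fell, with 42.8 and 36.4 RPKM at 6 h.p.f., against 206 and 211 RPKM at 4 h.p.f. (log2 change of -2.45 ± 0.05). Cholesterol and fatty acid genes fell in 23 of 37, 18 under all 3 scalings. The sterol dehydrogenase nsdhl had 1.44 and 1.71 RPKM at 6 h.p.f., against 34.2 and 36.6 RPKM at 4 h.p.f. (log2 change of -4.81 ± 0.07), and hmgcs1, at the entry of the mevalonate pathway, had 15.5 RPKM at 6 h.p.f. and 76.9 RPKM at 4 h.p.f. (log2 change of -2.38 ± 0.03). The fatty acid elongase elovl6 rose, with 33.7 and 32.1 RPKM at 6 h.p.f., against 4.21 and 4.21 RPKM at 4 h.p.f. (log2 change of 3.20 ± 0.10).

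Nuclear RNA machinery was among the groups above the median of all genes. Splicing factors rose in 26 of 134 and fell in 10, with a median of 0.44 and summed levels of 37842 and 37818 RPKM at 6 h.p.f., against 25034 and 25004 at 4 h.p.f. The tissue-restricted factor rbm47 had 23.1 and 23.2 RPKM at 6 h.p.f., against 0.300 and 0.302 RPKM at 4 h.p.f. (log2 change of 6.81 ± 0.10), and the core protein snrpg had 34.6 and 30.5 RPKM at 6 h.p.f., against 5.34 and 5.60 RPKM at 4 h.p.f. (log2 change of 2.79 ± 0.14). Fallen members included proteins that act on mRNA in the cytoplasm: lsm14b had 16.1 and 17.5 RPKM at 6 h.p.f., against 319 and 329.8 RPKM at 4 h.p.f. (log2 change of -4.41 ± 0.03), and lsm1, of the decapping complex, had 7.22 and 7.27 RPKM at 6 h.p.f., against 40.8 and 37.6 RPKM at 4 h.p.f. (log2 change of -2.56 ± 0.07). Among nuclear pore and importin genes, kpna7, an importin alpha of the oocyte in mammals, had 6.10 and 5.59 RPKM at 6 h.p.f., against 60.7 and 62.2 RPKM at 4 h.p.f. (log2 change of -3.58 ± 0.04), while kpna3 had 79.8 and 75.6 RPKM at 6 h.p.f., against 9.65 and 9.63 RPKM at 4 h.p.f. (log2 change of 3.18 ± 0.06), and the list as a whole had 3 risen and 9 fallen of 44, 5 under all 3 scalings.

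Histone and nucleosome-binding genes moved both ways. Of 30, 14 rose and 4 fell. The oocyte linker histone h1m had 244 and 246 RPKM at 6 h.p.f., against 2048 and 2045 RPKM at 4 h.p.f. (log2 change of -3.08 ± 0.02), and the maternal H2A variant h2af1al had 76.1 and 81.4 RPKM at 6 h.p.f., against 1871 and 1951 RPKM at 4 h.p.f. (log2 change of -4.64 ± 0.03). The nucleosome-binding protein hmgn6 had 699 and 684 RPKM at 6 h.p.f., against 119 and 118 RPKM at 4 h.p.f. (log2 change of 2.55 ± 0.02). Most replication-dependent histone mRNAs carry no poly(A) tail and are poorly seen after poly(A) selection, and the histone mRNA binding protein slbp2 had 3.65 and 3.63 RPKM at 6 h.p.f., against 52.7 and 50.9 RPKM at 4 h.p.f. (log2 change of -4.04 ± 0.06). Chromatin modifiers had 11 risen and 33 fallen of 120, 20 under all 3 scalings, with a median that turned from -0.37 by library totals to 0.20 by TMM. The methyltransferase dnmt1 had 25.1 RPKM at 6 h.p.f. and 109 RPKM at 4 h.p.f. (log2 change of -2.19 ± 0.02), while the de novo enzyme dnmt3bb.2 had 111 and 47.3 RPKM (log2 change of 1.25 ± 0.02). The remodeller smarca2 had 1.73 and 1.62 RPKM at 6 h.p.f., against 23.6 and 23.2 RPKM at 4 h.p.f. (log2 change of -4.07 ± 0.05). In the RNA polymerase II list, with 3 risen and 24 fallen of 93, 10 under all 3 scalings, the subunit polr2k had 124 and 119 RPKM at 6 h.p.f., against 27.3 and 29.8 RPKM at 4 h.p.f. (log2 change of 2.16 ± 0.07). The oocyte TBP paralogue tbpl2 had 0.805 and 0.759 RPKM at 6 h.p.f., against 7.39 and 7.17 RPKM at 4 h.p.f. (log2 change of -3.56 ± 0.14) after 45.9 RPKM at 2 h.p.f., and tbp itself had 36.4 and 237 RPKM (log2 change of -2.75 ± 0.02). C2H2 zinc finger genes, with 14 risen and 42 fallen of 110, 28 under all 3 scalings, sat at the median of all genes.

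By library totals, more cell cycle genes fell than rose, which held over all genes as well. Cyclins, their kinases and checkpoint genes had 12 risen and 41 fallen of 100, shares close to the background, with 18 fallen under all 3 scalings. The G1 inhibitor cdkn1ba had 12.7 and 13.8 RPKM at 6 h.p.f., against 1.149 and 1.45 RPKM at 4 h.p.f. (log2 change of 3.65 ± 0.13), and the S phase cyclin ccne2 had 166 and 165 RPKM at 6 h.p.f., against 42.0 and 42.7 RPKM at 4 h.p.f. (log2 change of 2.01 ± 0.03). The checkpoint kinase chek1 had 7.16 RPKM at 6 h.p.f. and 32.6 RPKM at 4 h.p.f. (log2 change of -2.32 ± 0.05). DNA replication and repair genes fell in 43 of 87, 21 under all 3 scalings, the second share close to the background of 24.5%. Within the MCM helicase the zygotic subunit mcm6 had 56.3 and 55.7 RPKM at 6 h.p.f., against 12.9 and 13.5 RPKM at 4 h.p.f. (log2 change of 2.18 ± 0.04), unlisted at 2 h.p.f., and the maternal paralogue mcm3l had 6.56 and 6.26 RPKM at 6 h.p.f., against 73.3 and 71.6 RPKM at 4 h.p.f. (log2 change of -3.67 ± 0.04). The licensing inhibitor gmnn had 192 RPKM at 6 h.p.f. and 1271 RPKM at 4 h.p.f. (log2 change of -2.75 ± 0.02). Mitotic kinesin, kinetochore and condensin genes, with 3 risen and 25 fallen of 75, 12 under all 3 scalings, had a median that turned from -0.51 by library totals to 0.06 by TMM. These genes fell less often than all genes, in 33.3% against 40.9%, and in 16% against 24.5% under all 3 scalings. They rose less often too, in 4% against 14.2%. The passenger protein birc5b had 16.7 and 16.1 RPKM at 6 h.p.f., against 158 and 163 RPKM at 4 h.p.f. (log2 change of -3.38 ± 0.05), and its paralogue birc5a had 41.9 and 29.2 RPKM (log2 change of 0.55 ± 0.05).

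Regulators of maternal mRNA themselves fell in 43 of 90, 26 under all 3 scalings, shares near the background. The deadenylation adaptor btg4 had 7.85 and 8.28 RPKM at 6 h.p.f., against 159 and 155 RPKM at 4 h.p.f. (log2 change of -4.45 ± 0.04), after 788 RPKM at 2 h.p.f. The RNA-binding protein igf2bp3 had 41.0 RPKM at 6 h.p.f. and 80.8 RPKM at 4 h.p.f. (log2 change of -1.003 ± 0.02), while its paralogues igf2bp1 and igf2bp2b had 111 and 109 RPKM at 6 h.p.f., against 30.2 and 30.1 RPKM at 4 h.p.f. (log2 change of 1.92 ± 0.02), and 11.4 and 11.1 RPKM at 6 h.p.f., against 0.618 and 0.497 RPKM at 4 h.p.f. (log2 change of 4.70 ± 0.20). The mRNA of elavl1a, the binding protein depleted in the morphants, had 299 RPKM at 6 h.p.f. and 201 RPKM at 4 h.p.f. (log2 change of 0.56 ± 0.02) in control embryos.

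Among large families of cell maintenance, solute carriers fell in 100 of 177, 63 under all 3 scalings, and rose in 35, with a median of -1.21. The organic cation transporter slc22a2 had 9.35 and 9.68 RPKM at 6 h.p.f. and was not listed at 4 h.p.f., at least 95.1-fold higher, and the extruder slc47a4 had 19.2 and 19.6 RPKM at 6 h.p.f., against 0.634 and 0.639 RPKM at 4 h.p.f. (log2 change of 5.44 ± 0.11). The monocarboxylate transporter slc16a3b had 37.1 RPKM at 6 h.p.f. and 508 RPKM at 4 h.p.f. (log2 change of -3.83 ± 0.02). Ubiquitin ligases and deubiquitinases fell in 118 of 242, 74 under all 3 scalings, and the F-box gene fbxl2 had 1.79 and 2.03 RPKM at 6 h.p.f., against 40.3 and 40.3 RPKM at 4 h.p.f. (log2 change of -4.70 ± 0.05). The epithelial Rab rab25a had 87.6 and 87.2 RPKM at 6 h.p.f., against 3.14 and 3.02 RPKM at 4 h.p.f. (log2 change of 5.14 ± 0.05). Cytoskeletal genes rose in 14 of 54 and fell in 12 by library totals, and in 25 and 8 by TMM. The actin-sequestering protein tmsb1 had 444 and 430.1 RPKM at 6 h.p.f., against 42.4 and 42.6 RPKM at 4 h.p.f. (log2 change of 3.42 ± 0.05), profilin pfn1 had 1396 RPKM at 6 h.p.f. and 304 RPKM at 4 h.p.f. (log2 change of 2.19 ± 0.02), and the ezrin gene ezrb had 16.03 and 15.2 RPKM at 6 h.p.f., against 81.2 and 81.5 RPKM at 4 h.p.f. (log2 change of -2.50 ± 0.04).

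Genes of protein folding and turnover moved both ways, as did all genes, in shares near or below the background of 14.2% risen and 40.9% fallen. Proteasome subunits mostly stayed within 2-fold, 3 of 46 rising and 5 falling, 2 under all 3 scalings. Chaperones had 15 risen (14.7%) and 32 fallen (31.4%) of 102, 19 (18.6%) under all 3 scalings. The endoplasmic reticulum chaperone hspa5 (BiP) had 113 and 116 RPKM at 6 h.p.f., against 855 and 848 RPKM at 4 h.p.f. (log2 change of -2.92 ± 0.02), and hsp90b1 had 56.3 RPKM at 6 h.p.f. and 207 RPKM at 4 h.p.f. (log2 change of -1.92 ± 0.02), while the small heat shock protein hspb1 had 2987 and 3049.6 RPKM at 6 h.p.f., against 417 and 422 RPKM at 4 h.p.f. (log2 change of 2.84 ± 0.02). Lysosome and autophagy genes had 10 risen (14.3%) and 23 fallen (32.9%) of 70, 14 (20%) under all 3 scalings. Their median turned from -0.33 by library totals to 0.24 by TMM. Cathepsin ctsh had 45.6 and 45.05 RPKM at 6 h.p.f., against 3.39 and 3.33 RPKM at 4 h.p.f. (log2 change of 3.98 ± 0.09), cathepsin ctsz had 3.39 and 3.88 RPKM at 6 h.p.f., against 70.0 and 71.3 RPKM at 4 h.p.f. (log2 change of -4.48 ± 0.05), and the autophagosome protein map1lc3c had 33.0 and 32.9 RPKM at 6 h.p.f., against 461 and 453 RPKM at 4 h.p.f. (log2 change of -3.87 ± 0.02). The stress protein sesn3 had 172 and 169 RPKM at 6 h.p.f., against 17.9 and 17.8 RPKM at 4 h.p.f. (log2 change of 3.35 ± 0.03), and its paralogue sesn1 had 3.61 and 3.92 RPKM at 6 h.p.f., against 18.4 and 18.7 RPKM at 4 h.p.f. (log2 change of -2.42 ± 0.05). Innate immune genes rose in 13 of 74 (17.6%) and fell in 32 (43.2%), 19 (25.7%) under all 3 scalings, shares near the background. Among them the cytokine receptor il23r had 25.7 and 27.6 RPKM at 6 h.p.f., against 1.79 and 1.70 RPKM at 4 h.p.f. (log2 change of 4.16 ± 0.12).

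**Figure D4:**
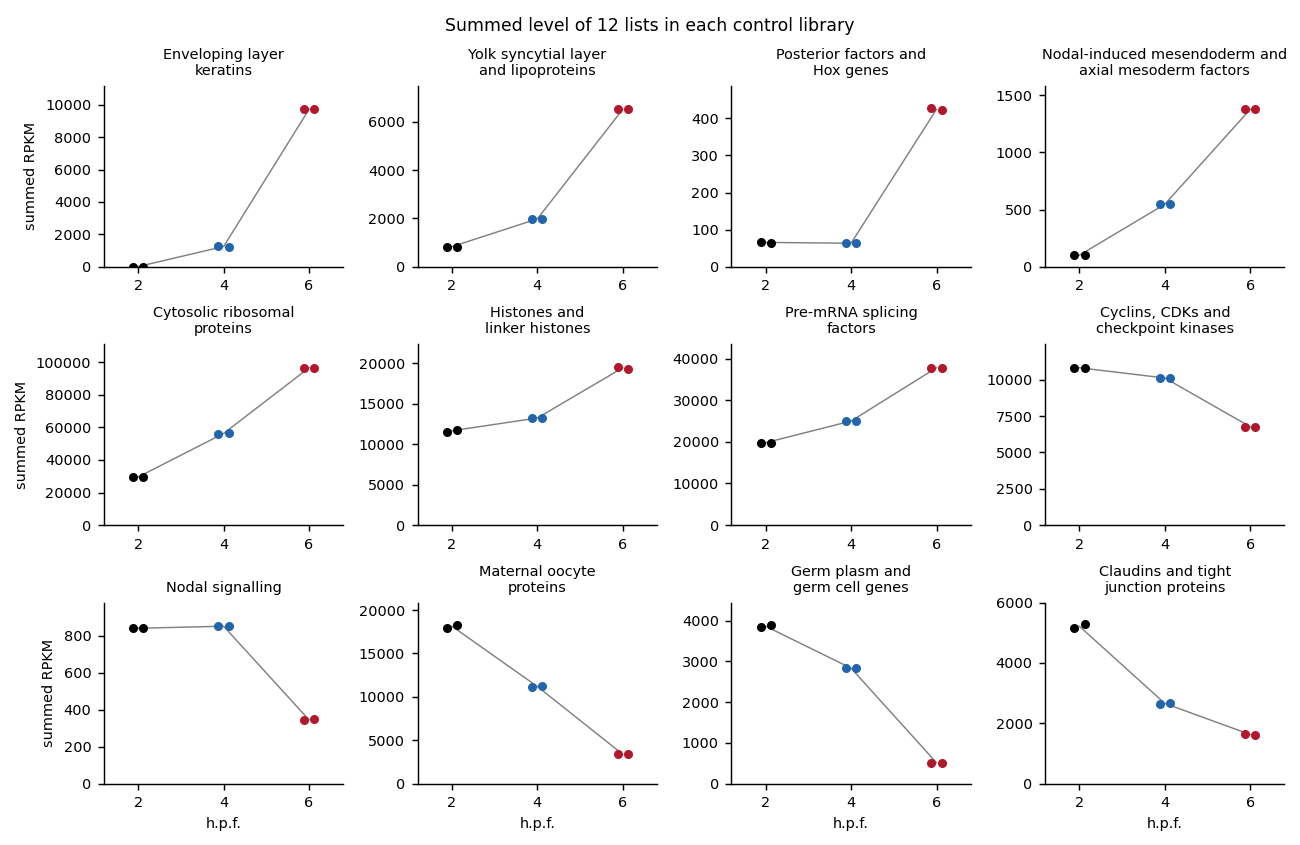
Summed RPKM of 12 lists (y axes, from 0) in each control library at 2, 4 and 6 h.p.f. (x axes), with a grey line through the stage means. Keratins stand at 9712 and 9733 at 6 h.p.f., against 1245 and 1239.7 at 4 h.p.f., whereas germ plasm genes stand at 514 and 511 at 6 h.p.f., against 2838 and 2829 at 4 h.p.f.

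Other deposited values were set beside the contrast. The icSHAPE tables, which do not say from which libraries their levels were made, give an RPKM per transcript at the shield and sphere stages for 5928 of the genes, those listed at both stages. Across these genes the log2 ratio of shield over sphere and the log2 change of the control RNA-seq had Pearson's r of 0.90 and a Spearman rank correlation of 0.91, a description across genes, which are not independent replicates. Of 483 risen genes in these tables, 98.1% were higher at shield, and of 1968 fallen genes 1.07% were. The share was 42.7% of 3477 genes in neither class and 33.4% of all 5928. Most of the 1405 risen genes are not covered, since a gene had to be listed at both stages.

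In Elavl1a morphants, whose 4 libraries are separate from the control ones, the 6 over 4 h.p.f. log2 change had Pearson's r of 0.90 and a Spearman rank correlation of 0.88 with that in controls across 9872 genes. Of the risen genes 95.2% were above 0 in morphants, and of the fallen genes 2.402% were. The share was 46.2% of the genes in neither class and 35.3% of all genes. The morphant libraries also entered the level filter and the shared fit. Mesendoderm factors had a median of 4.74 in morphants and 3.94 in controls, keratins had 3.97 and 3.82, and germ plasm genes had -2.72 and -2.27. Cytosolic ribosomal proteins had a median of 0.10 in morphants and 0.80 in controls. The difference between the embryos was not tested over any list. Morphants were matched to controls by age, and the authors report that their development was delayed.

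**Figure D5:**
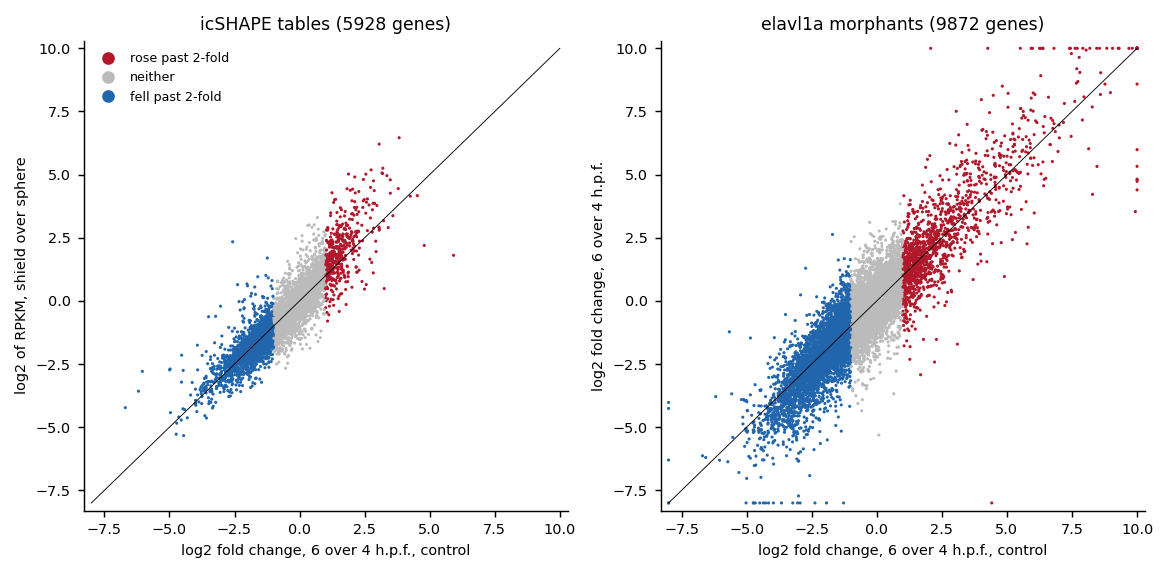
Log2 ratio of RPKM, shield over sphere, in the icSHAPE tables (left, 5928 genes) and log2 fold change, 6 over 4 h.p.f., in Elavl1a morphants (right, 9872 genes) against the log2 fold change in control embryos (x axes); 1 point per gene, values past -8 or 10 drawn at the edge, with the line of equality. Risen genes lie above 0 on both y axes with few exceptions (98.1% left, 95.2% right), against 33.4% and 35.3% of all genes drawn.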

How the data were processed

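Poly(A)-selected RNA of whole embryos was sequenced with a stranded kit. The authors trimmed reads with cutadapt and Trimmomatic, mapped them with Bowtie2 to the RefSeq zebrafish transcriptome, filtered on mapping quality, and deposited per transcript the counts of uniquely mapped reads and of multiply mapped reads and an RPKM computed from both. Transcripts under 0.1 RPKM are left out of each deposited table and were set to 0 counts. The RPKM column of the deposited icSHAPE tables was used as a readout only, and the libraries it was made from are not given in the sources used here.

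Transcripts averaging 1 RPKM or more over the 10 RNA-seq libraries entered edgeR 4.0.16 (R 4.3.3), a quasi-likelihood test on unique counts over all 10 libraries with library totals, and p-values were adjusted by Benjamini-Hochberg. For genes, the transcript of highest mean RPKM was kept, and 9792 of 9945 transcripts had a symbol in RefSeq tables. A gene was called past 2-fold at an adjusted p under 0.05. Named genes had at least 10 RPKM (within lists, 2 RPKM) in the higher stage and no overlap between stages, 15 in each direction over all genes and up to 3 in each direction per list. For a gene unlisted in both libraries of a stage, the fold was computed against 0.1 RPKM and is a lower bound.

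The genes and lists were chosen with earlier results of these data known. Alternatives were other scalings (TMM, DESeq2 1.42.0), the DESeq2 Wald test, limma 3.58.1 on log2(RPKM + 1) and log2(RPKM + 0.1), other filters, a replicate block, and leaving out each library. After seeing the data, 2 were added, the rRNA transcript left out and unlisted transcripts at 0.1 RPKM. The fits were tested on simulated counts. Results for 2 of the lists and a few single genes are not reported here.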

Additional observations from a re-analysis of the deposited data

Results flagged for a closer look

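For the 30 genes of largest change, the change from 4 to 6 h.p.f. was set against that in Elavl1a morphants by an interaction term in the same edgeR fit. Genes unlisted in any of the 4 control libraries, or in both morphant libraries of an age, could not be counted. Of the others, 4 differed by more than 2 on the log2 scale at an adjusted p under 0.05. The authors report delayed development of morphants, with late gastrulation. Age was thus matched and stage was not, and delay and other effects of the morpholino cannot be told apart. The 30 were picked by the control change, which also enters the difference. That choice by itself favours a smaller change in morphants. The rise of otx2b was smaller in morphants, at 8.96 RPKM at 6 h.p.f. and 0.300 RPKM at 4 h.p.f., against 18.4 and 0.165 RPKM in controls (difference in log2 change of -3.13, adjusted p = 1.5e-05). That difference rests on unique reads at low levels at 4 h.p.f., near the limit of 0.1 RPKM. The RPKM printed here give a smaller difference in the same direction, one not past 2. For pla2g12b, at 52.4 RPKM at 6 h.p.f. and 0.0685 RPKM at 4 h.p.f. in morphants, against 70.5 and 0.239 RPKM in controls, the difference was 2.45 (adjusted p = 0.00565), but 1 of 2 morphant libraries at 4 h.p.f. did not list the gene and was set to 0, below what the tables can show, so the value depends on that setting and no direction is read from it. The fall of mxtx2 was smaller in morphants, at 7.11 RPKM at 6 h.p.f. and 89.6 RPKM at 4 h.p.f. (difference of 2.399, adjusted p = 4.1e-12), as was that of heca, at 5.37 and 14.5 RPKM (difference of 3.39, adjusted p = 1.1e-11). Morphants and controls had 2 libraries per stage each.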

How the results depend on the processing

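By library totals 2994 transcripts were higher at 6 h.p.f., 1432 past 2-fold, and 6267 were lower, 4054 past 2-fold. TMM gave 2412 higher and 2742 lower past 2-fold. DESeq2 size factors gave 4822 higher, 2720 of them past 2-fold, and 2423 lower past 2-fold, and the DESeq2 Wald test gave 4788, 2716 and 2417. A 4-fold threshold left 732 higher and 1959 lower. Leaving out each library in turn gave 2914 to 2948 higher, 6128 to 6208 lower, 1426 to 1447 higher past 2-fold and 4024 to 4058 lower past 2-fold, with the lone library of a stage assumed to vary like the others. Libraries of the same number did not deviate together (correlation of 0.03), and the fit with the replicate block gave 2988 higher and 6256 lower transcripts, 1431 and 4055 past 2-fold. Over all alternatives, 4139 of 4140 values of named genes kept their direction and their side of the adjusted p of 0.05. Only pold4 lost its call, with no RPKM filter (log2 change of 1.89, edgeR adjusted p = 0.0738). The 2-fold limit was not part of this check. With 93.1% of transcripts called, and named genes picked mostly for large changes, this outcome was nearly fixed beforehand and is not separate support. Of 1456 counts over lists 1274 stayed within 1.5 times the reported value. The counts were not stable to the scaling. Of 104 counts, 48 moved past that limit under TMM, 59 under DESeq2 size factors and 59 under the DESeq2 Wald test. With no RPKM filter 15 of 104 did. The median of a list less that of all genes depended on the filter as well. It moved by more than the spread over pairs of libraries in 50 of 52 lists with no RPKM filter. With the filter taken over the 4 control libraries it did so in 39. The medians of 14 of 52 lists changed sign under TMM and of 18 under DESeq2 size factors. A level under 0.1 RPKM could not be seen, which limits folds for 29 genes unlisted in both libraries at 4 h.p.f., and for 5 in both at 6 h.p.f.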

Other observations

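Families that share a symbol root, with at least 8 tested members, gave further groups, chosen here after their values were seen. Peroxins, which build peroxisomes, fell past 2-fold by library totals in 12 of 13 members, 6 of them under all 3 scalings (median log2 change of -1.71). Myotubularin phosphatases (mtmr) fell in 9 of 10, 7 under all 3 scalings (median of -2.71), and tRNA methyltransferase genes (trmt) in 10 of 14, 8 under all 3 scalings (median of -1.88). Sorting nexins (snx) fell in 18 of 25, 10 under all 3 scalings, and rose in 1, and vps genes of vesicle sorting fell in 18 of 30, 7 under all 3 scalings. Semaphorins, guidance ligands, fell in 7 of 9, 6 under all 3 scalings, and rose in 2. On the other side Her repressors rose in 7 of 10 (median of 3.77) and Frizzled receptors in 7 of 12 (median of 1.48), and 2 of each family fell, under all 3 scalings. Both families overlap the Notch and Wnt lists above, so these counts are not separate results.

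Gene pairs whose symbols end in a and b, a naming often used for copies from the teleost genome duplication, were compared. Of 811 such pairs with both members tested, 41 (5.06%) rose together and 147 (18.1%) fell together. In 79 (9.74%) a member rose and its partner fell, where 16.2% of these members had risen and 37.8% had fallen. At these shares, partners unrelated in their change would be opposed more often than was seen. They would rise together or fall together less often. No test was made of this. The pairs named next were picked from the opposed ones and do not stand for the rest. The kinase gene slkb had a mean of 29.3 RPKM at 6 h.p.f. and 1.56 RPKM at 4 h.p.f., while slka had 18.7 and 81.1 RPKM. The ubiquitin ligase gene znrf2a had 179 RPKM at 6 h.p.f. and 20.3 RPKM at 4 h.p.f., while znrf2b had 1.75 and 14.8 RPKM. The corepressor subunit tbl1xr1a had 14.7 and 1.12 RPKM, while tbl1xr1b had 11.01 and 68.7 RPKM. Symbols alone defined the pairs, so the 811 also hold genes that are not such copies. Examples are sdha and sdhb, different subunits of an enzyme, and the kinases aurka and aurkb. Reads shared by close copies may have been split.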
